A study of Mus musculus with 13 samples.

Results

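The 10 genes described here make, release, sense and destroy acetylcholine in sympathetic ganglia. They comprise 6 neuronal nicotinic receptor subunits (Chrna3, Chrna4, Chrna5, Chrna7, Chrnb2 and Chrnb4), the acetylcholine-synthesising enzyme Chat, the vesicular transporter Slc18a3, the choline transporter Slc5a7 and the esterase Ache. They were taken by gene symbol from the platform annotation, which assigned them 14 of the 55681 array probes, and they are 10 of the 21893 named genes measured. The tissue was superior cervical ganglia and coeliac ganglia, taken from 2-week-old mice, and total RNA was measured. There were 6 TH-MYCN+/+ samples, homozygous for a transgene in which a tyrosine hydroxylase promoter drives human MYCN, and 7 wild-type samples from littermates of the same age. Every sample had a separate 1-colour Agilent array, and precision is limited by how many arrays there are. The promoter is active in catecholaminergic cells of neural crest origin, which are part of the cells of a ganglion. Whether an array held 1 or both kinds of ganglion and how many animals gave a sample is not stated in the labels, so the p-values reflect only sample-to-sample spread, part of which may be technical.

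Sympathetic ganglion neurons receive their input from cholinergic fibres of the spinal cord. Acetylcholine released by these fibres opens nicotinic receptors, which are pentamers of alpha and beta subunits. In autonomic ganglia the principal receptor contains alpha3 and beta4, with alpha5 as an accessory subunit, while alpha7 forms receptors of its own and alpha4 with beta2 is the main combination in brain. Most sympathetic neurons are noradrenergic, and a minority, known for their projection to sweat glands, are cholinergic and use Chat, Slc18a3 and Slc5a7. Chrna5, Chrna3 and Chrnb4 neighbour each other on mouse chromosome 9, and Slc18a3 lies within the Chat locus on chromosome 14, an arrangement known as the cholinergic gene locus.

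Promoters are shown for the clustered subunit genes, which moved in the same direction, and for the 3 members with a CACGTG match. Each is a RefSeq window on build GRCm38.p6 from 250 bases before to 50 bases after an annotated start, written 5′ to 3′ on the gene's strand, and all 10 members matched the RefSeq table. Capitals mark CACGTG, the E-box form known to be bound by MYC family proteins, and GGGCGG, the GC box, searched on both strands with overlapping matches counted. Chrna5 has a second annotated window with neither motif, which is not printed. The windows are chr9:54981238-54981537 (plus strand) for Chrna5, chr9:55026513-55026812 (minus strand) for Chrna3, chr9:55048495-55048794 (minus strand) for Chrnb4, chr7:63212477-63212776 (minus strand) for Chrna7, chr14:32465860-32466159 (minus strand) for Chat and chr5:137288004-137288303 (plus strand) for Ache.
Chrna5: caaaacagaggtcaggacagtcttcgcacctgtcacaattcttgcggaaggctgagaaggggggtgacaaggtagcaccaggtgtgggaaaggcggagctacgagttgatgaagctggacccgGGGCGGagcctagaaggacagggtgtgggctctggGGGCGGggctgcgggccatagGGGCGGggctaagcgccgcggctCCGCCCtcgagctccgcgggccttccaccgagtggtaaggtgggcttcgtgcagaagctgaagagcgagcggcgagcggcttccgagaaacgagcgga
Chrna3: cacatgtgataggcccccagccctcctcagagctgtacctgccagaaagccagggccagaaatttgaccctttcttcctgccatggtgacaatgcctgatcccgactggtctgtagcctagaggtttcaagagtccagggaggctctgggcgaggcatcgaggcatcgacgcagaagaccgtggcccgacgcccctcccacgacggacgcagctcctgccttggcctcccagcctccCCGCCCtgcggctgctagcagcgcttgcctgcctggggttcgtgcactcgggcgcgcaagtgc
Chrnb4: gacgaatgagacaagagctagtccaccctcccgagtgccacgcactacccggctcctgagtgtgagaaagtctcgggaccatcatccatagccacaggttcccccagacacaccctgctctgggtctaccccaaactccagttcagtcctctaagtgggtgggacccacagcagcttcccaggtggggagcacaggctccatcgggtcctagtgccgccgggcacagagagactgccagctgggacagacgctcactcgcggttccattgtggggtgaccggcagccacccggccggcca
Chrna7: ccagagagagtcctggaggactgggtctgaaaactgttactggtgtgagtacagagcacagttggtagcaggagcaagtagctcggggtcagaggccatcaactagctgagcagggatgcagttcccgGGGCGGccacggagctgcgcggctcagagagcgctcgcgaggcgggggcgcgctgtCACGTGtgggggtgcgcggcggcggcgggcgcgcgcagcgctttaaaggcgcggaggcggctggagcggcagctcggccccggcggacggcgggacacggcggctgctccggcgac
Chat: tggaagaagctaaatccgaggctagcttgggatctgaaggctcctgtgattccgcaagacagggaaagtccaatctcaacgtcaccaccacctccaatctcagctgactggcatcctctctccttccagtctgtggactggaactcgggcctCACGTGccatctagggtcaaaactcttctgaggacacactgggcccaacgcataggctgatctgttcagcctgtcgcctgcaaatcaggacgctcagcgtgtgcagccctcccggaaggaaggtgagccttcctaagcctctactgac
Ache: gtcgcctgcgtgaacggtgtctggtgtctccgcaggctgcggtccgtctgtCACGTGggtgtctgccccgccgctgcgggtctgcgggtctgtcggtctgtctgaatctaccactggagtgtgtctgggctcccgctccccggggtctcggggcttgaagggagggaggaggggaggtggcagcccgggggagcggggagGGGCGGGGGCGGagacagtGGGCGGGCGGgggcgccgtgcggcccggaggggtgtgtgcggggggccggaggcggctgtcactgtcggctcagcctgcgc
CACGTG was found in 3 of the 11 member windows and in 7.15% of 32851 promoter windows of this length. GGGCGG was found in 7 of the 11 and in 35.7% of all. The Chrna5 window held 4 GC boxes, Chrna3 held 1 and Chrnb4 held none. A match describes these letters only.

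The ganglionic receptor genes Chrna3, Chrna5 and Chrnb4 fell in TH-MYCN+/+ ganglia, by 2.29-fold to 3.51-fold, and Slc5a7 and Ache fell by 3.68-fold and 3.2-fold. Slc18a3 fell 1.98-fold. Chrna4 and Chrna7 rose by the brighter of their probes, the dimmer Chrna7 probe being lower, while Chrnb2 and Chat did not pass the test. In all 6 members were lower and 2 higher at an adjusted p under 0.05 (limma, quantile-normalized values, Benjamini-Hochberg over all genes). Among all genes 34.3% were lower, 18.9% higher and 53.2% either, so a call in itself is common here. For 5 members every TH-MYCN+/+ array was below every wild-type array and for 1 every array was above, against 23.1% and 12.3% of all genes. All 10 members were above background on all arrays, whereas these shares include genes below background. Of the 15928 genes above background on 6 or more arrays, 7179 were lower and 4007 higher. Shares without overlap were not counted for that set. The median log2 fold change was -1.09 over the members and -0.15 over all genes.

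**Figure D1:**
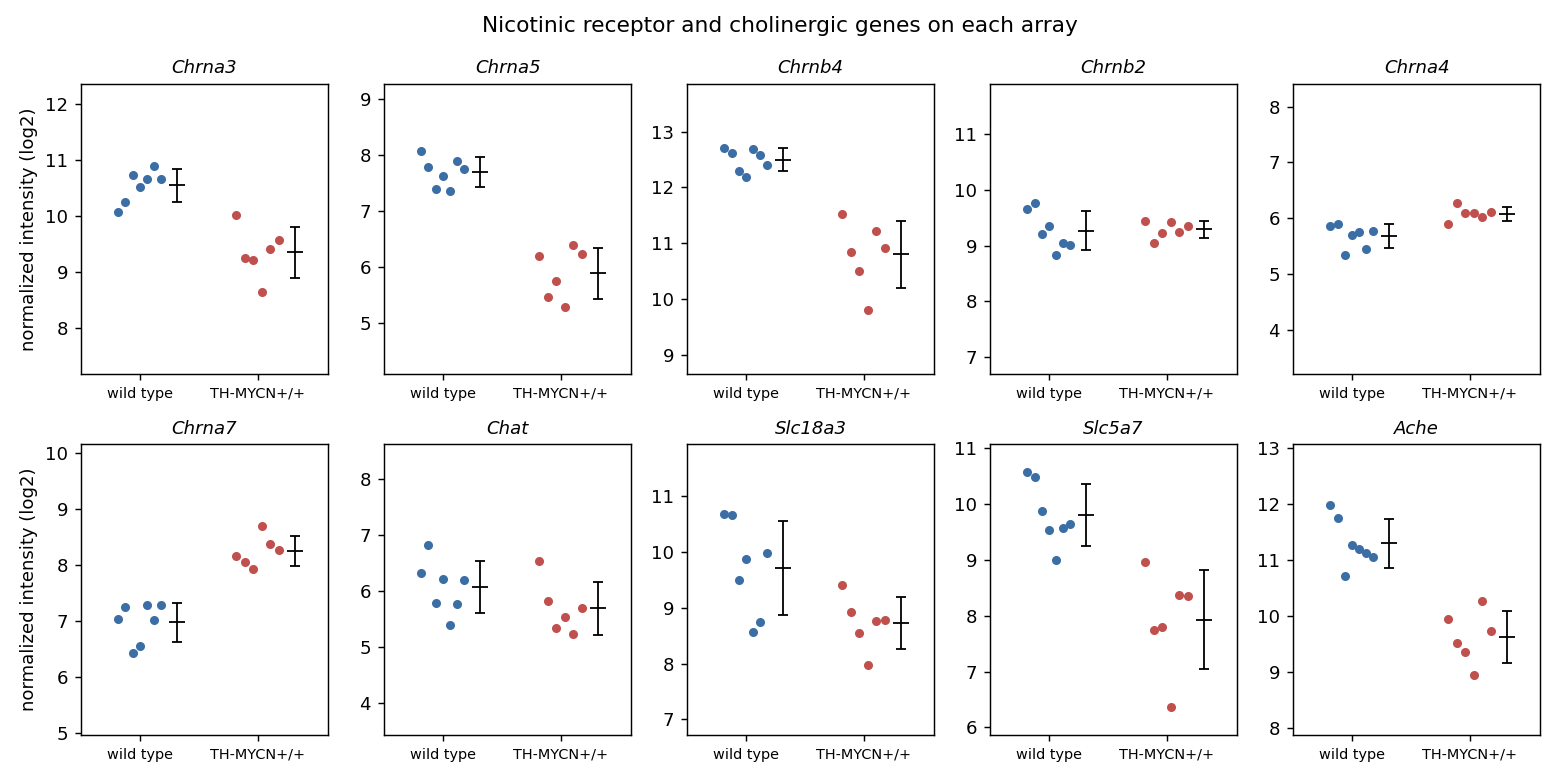
Normalized log2 intensity of each of the 10 genes (brightest probe) on 7 wild-type (blue) and 6 TH-MYCN+/+ (red) arrays. Points are arrays, the bar is the mean with its SD, and every panel spans the same number of log2 units. Chrna3, Chrna5, Chrnb4, Slc5a7 and Ache of TH-MYCN+/+ lie wholly below wild type and Chrna7 lies wholly above.

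Scaling between arrays moved all these values. The median gene shifted by -0.15 after quantile normalization, -0.44 after median centring, -0.30 after centring on the 75th percentile, 0.14 in the values as deposited and 0.30 when arrays were scaled on the E1A spike-in probes. The share of called genes that were higher was 35.5% with quantile normalization, 66.8% as deposited, 78.2% with spike-in scaling, 22% with median centring and 31.0% with centring on the 75th percentile. With spike-in scaling 7.21% of all genes were lower and 25.9% higher. There 4 members (Chrna5, Chrnb4, Slc5a7 and Ache) were still lower, and Chrna4 and Chrna7 were still higher by their brighter probes. The dimmer Chrna7 probe was not called with this scaling. Arrays also differed in markers of neighbouring tissue, and whether such tissue was carried over was not tested. Skeletal muscle markers (5 of 5 measured) averaged 4.92 to 12.97 in TH-MYCN+/+ and 7.23 to 9.47 in wild type on the log2 scale, adrenal cortex markers (4 of 4) 2.15 to 5.35 and 2.01 to 8.02, the thyroid marker Tg 0.85 to 4.65 and 2.08 to 8.05, and lymphocyte markers (2 of 3) 5.91 to 7.51 and 6.33 to 9.54. TH-MYCN+/+ replicate 6 and wild-type replicates 1, 7 and 3 were highest for these in turn. Leaving out these 4 arrays, a choice made after the data were seen, gave 5 lower and 2 higher members, Slc18a3 being the call lost.

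Chrna3 encodes the alpha subunit that all main ganglionic receptors contain. Its log2 intensity ran from 10.08 to 10.90 in wild type (median 10.67) and from 8.65 to 10.02 in TH-MYCN+/+ (median 9.33). The groups did not overlap, but the brightest TH-MYCN+/+ array, replicate 1, at 10.02, came close to the dimmest wild-type array. The log2 fold change was -1.20 ± 0.20 (SE; adjusted p = 1.77e-04 by limma), or -1.05 relative to the median gene. This call ended with spike-in scaling, where the change was -0.67 (adjusted p = 0.0942).

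Chrna5 encodes the accessory subunit, which alters the calcium permeability and desensitisation of alpha3-containing receptors. It lay between 7.35 and 8.08 in wild type (median 7.76) and between 5.28 and 6.39 in TH-MYCN+/+ (median 5.97). Every TH-MYCN+/+ array was well below every wild-type array. Its log2 fold change was -1.81 ± 0.19 (SE; adjusted p = 5.52e-06), and -1.15 (adjusted p = 0.00410) with spike-in scaling.

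Chrnb4 encodes the beta subunit that pairs with alpha3 in ganglia. Wild-type arrays were tightly grouped at 12.19 to 12.71 (median 12.58), and TH-MYCN+/+ arrays were spread from 9.81 to 11.52 (median 10.88). The SD was 0.60 over the 6 TH-MYCN+/+ arrays and 0.20 over the 7 wild-type arrays. The log2 fold change was -1.69 ± 0.23 (SE; adjusted p = 3.30e-05), and -1.21 (adjusted p = 0.00337) with spike-in scaling. Because these are bulk samples, fewer cells of a type and less RNA per cell cannot be told apart, for these genes and for those that follow.

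The clustered genes did not fall equally. Within each array the log2 value of Chrna5 minus that of Chrna3 averaged -3.47 ± 0.30 (SD) over the 6 TH-MYCN+/+ arrays and -2.85 ± 0.48 (SD) over the 7 wild-type arrays, a difference of -0.61 (exact permutation test, two-sided, p = 0.0157). For Chrnb4 minus Chrna3 the means were 1.45 ± 0.23 (SD, n = 6) and 1.95 ± 0.41 (SD, n = 7), a difference of -0.49 (exact permutation p = 0.0210). Adjusted over the 4 gene pairs compared in this way, both exact p-values were 0.0256, in designs where the smallest possible is 5.83e-04. Both lost this call without TH-MYCN+/+ replicate 4 (-0.63, adjusted exact p = 0.0530, and -0.44, adjusted exact p = 0.0556). The ratio shows an unequal change between probes and no level of one gene against another.

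The beta subunits separated clearly. Chrnb2, the beta subunit of the alpha4-beta2 receptor, held 8.83 to 9.76 in wild type (median 9.21) and 9.05 to 9.44 in TH-MYCN+/+ (median 9.30). Its range in TH-MYCN+/+ lay inside that of wild type. The log2 fold change of 0.03 had a 95% interval of -0.29 to 0.35 (adjusted p = 0.899), and it was 0.58 (adjusted p = 0.100) with spike-in scaling. Chrnb2 minus Chrnb4 differed between genotypes by 1.72 within arrays (exact permutation p = 5.83e-04, the smallest possible, and 0.00233 adjusted over the 4 pairs), and all TH-MYCN+/+ arrays (-2.09 to -0.38) lay above all wild-type arrays (-3.85 to -2.85).

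**Figure D2:**
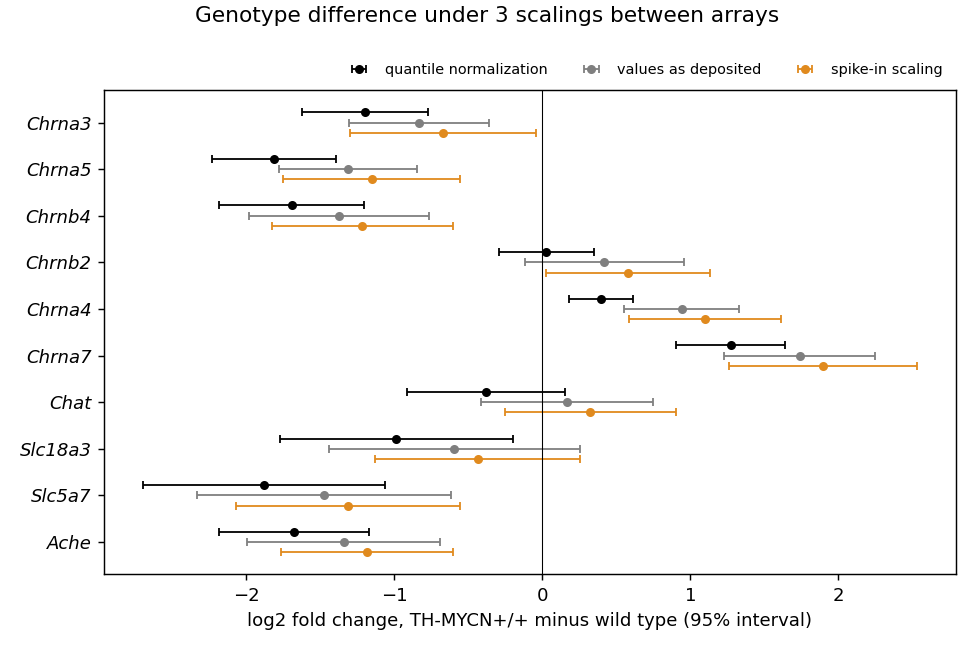
Log2 fold change (TH-MYCN+/+ minus wild type) of the 10 genes (brightest probe) with its 95% interval from limma, after quantile normalization (black), in the values as deposited (grey) and after spike-in scaling (orange). Chrna5, Chrnb4, Slc5a7 and Ache stay below 0 and Chrna4 and Chrna7 above 0 in all 3, while Chrnb2 and Chat were called in none of them.

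Chrna4, the alpha subunit best known from brain, held by its brighter probe 5.34 to 5.89 in wild type (median 5.75) and 5.89 to 6.28 in TH-MYCN+/+ (median 6.09). The groups just touched. That probe rose by 0.40 ± 0.10 (SE) on the log2 scale, 1.32-fold (adjusted p = 0.00430). The dimmer probe, the one annotated to the RefSeq transcript, was below background on all 7 wild-type arrays and above it on all 6 TH-MYCN+/+ arrays. It was at least 5.46-fold higher in TH-MYCN+/+, with measured means of 5.41 and 1.70 (adjusted p = 1.13e-05 over all array probes). For this bound, wild-type values dimmer than the weakest probe above background on their array were set to that probe's signal. Both probes were higher under each of the 5 scalings, so the probes share a direction and differ in size.

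Chrna7, whose subunit forms receptors of alpha7 alone, gave opposite answers by probe. The brighter probe, annotated to a GenBank mRNA that is not a RefSeq transcript, ranged from 6.42 to 7.28 in wild type (median 7.03) and from 7.92 to 8.70 in TH-MYCN+/+ (median 8.22). It rose by 1.27 ± 0.17 (SE; 2.42-fold, adjusted p = 3.25e-05), and by 1.90 with spike-in scaling. The dimmer probe, annotated to the RefSeq transcript, ranged from 6.45 to 7.29 in wild type and from 6.15 to 6.64 in TH-MYCN+/+, overlapping. It was 1.37-fold lower (-0.45 ± 0.13 SE, adjusted p = 0.0106 over all array probes), and this difference did not hold as deposited (0.06, adjusted p = 0.825) or with spike-in scaling (0.22, adjusted p = 0.501). The mean of both probes rose by 0.41 on the log2 scale. A direction for Chrna7 therefore belongs to the probe and cannot be given for the gene.

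**Figure D3:**
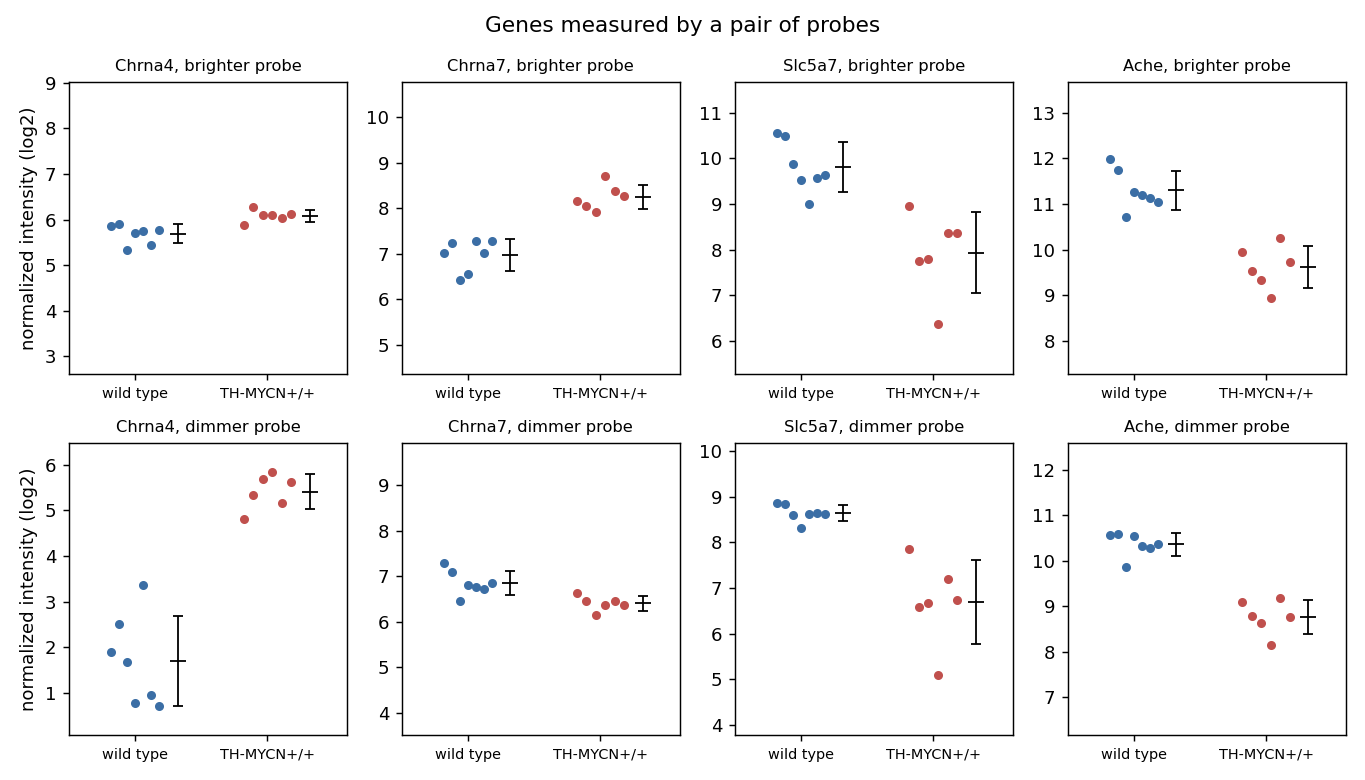
Normalized log2 intensity by array for the 4 genes with a brighter (top) and a dimmer (bottom) probe, wild type in blue and TH-MYCN+/+ in red, with mean and SD. The probes of Slc5a7 and Ache fall together, those of Chrna4 both rise, and those of Chrna7 go opposite ways.

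Of the 14 probes taken singly, 9 were lower, 3 were higher and 2 were not called, against 23.0% lower and 19.2% higher among all array probes. Slc5a7 and Ache, each with a pair of RefSeq-annotated probes, gave like answers by both.

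Slc5a7, which takes choline into the nerve terminal and limits acetylcholine synthesis, was lower on all TH-MYCN+/+ arrays than on any wild-type array. It ran from 9.0 to 10.57 in wild type (median 9.65) and from 6.37 to 8.95 in TH-MYCN+/+ (median 8.08). The highest TH-MYCN+/+ array nearly reached the lowest wild-type array, and the TH-MYCN+/+ spread was 0.88 (SD, n = 6). The log2 fold change was -1.88 ± 0.38 (SE; adjusted p = 8.64e-04) by the brighter and -1.95 ± 0.33 (SE) by the dimmer probe. With spike-in scaling it was -1.31 (adjusted p = 0.00867).

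Ache, which ends transmission by hydrolysing acetylcholine and which noradrenergic neurons also carry, held 10.71 to 11.99 in wild type (median 11.19) and 8.95 to 10.26 in TH-MYCN+/+ (median 9.62). No arrays overlapped. The fall was -1.68 ± 0.23 (SE; adjusted p = 4.76e-05), and -1.18 (adjusted p = 0.00292) with spike-in scaling.

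Slc18a3, the transporter that fills vesicles with acetylcholine, had the widest wild-type spread of the 10 brightest probes (SD 0.84, n = 7), from 8.56 to 10.68 (median 9.87). TH-MYCN+/+ arrays held 7.97 to 9.40 (median 8.77), and the groups overlapped. Its log2 fold change of -0.98 ± 0.36 (SE; adjusted p = 0.0358) lost its call as deposited (-0.59, adjusted p = 0.269), under spike-in scaling (-0.44, adjusted p = 0.340), without the 4 arrays named above (-0.74, adjusted p = 0.229) and without any 1 of 8 single arrays, TH-MYCN+/+ replicates 3, 4, 5 and 6 and wild-type replicates 1, 2, 4 and 7 (-0.99 to -0.82). Its adjusted p without 1 array ran from 0.0101 to 0.0849.

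Chat, which makes acetylcholine, was among the dimmer members and did not pass the test. It lay between 5.39 and 6.83 in wild type (median 6.21) and between 5.23 and 6.54 in TH-MYCN+/+ (median 5.61), and the groups largely overlapped. The log2 fold change was -0.38 with a 95% interval of -0.92 to 0.15 (adjusted p = 0.220), and its sign turned as deposited (0.17, adjusted p = 0.672) and under spike-in scaling (0.32, adjusted p = 0.391). Chat minus Slc18a3, which share a locus, differed between genotypes by 0.60 within arrays (exact permutation p = 0.0256, also 0.0256 adjusted over the 4 pairs), and by 0.48 without TH-MYCN+/+ replicate 4 (adjusted exact p = 0.0556).

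Among wild-type arrays Slc18a3 varied together with Vip and with Chat, and the relations with Slc5a7 did not pass. Slc18a3 was highest on wild-type replicates 1 and 2 and lowest on replicates 5 and 6, and Vip, a neuropeptide of cholinergic sympathetic neurons, was highest and lowest on the same arrays. Slc18a3 and Vip correlated at r = 0.95 (exact permutation p = 9.92e-04, rho = 0.96, exact p = 0.00278, n = 7), and at r = 0.93 without the 2 arrays farthest from the Slc18a3 median. For Chat and Slc18a3 r was 0.91 (exact permutation p = 7.94e-04, rho = 0.93, exact p = 0.00675, n = 7), and r was 0.89 without the 2 arrays farthest from the Chat median. These 2 relations, of 12 computed among Chat, Slc18a3, Slc5a7 and Vip within the genotypes, had an adjusted exact p of 0.00595 for r, and of 0.0333 and 0.0405 for rho. Slc18a3 and Slc5a7 gave r = 0.87 in wild type (exact permutation p = 0.0212, adjusted 0.0637, rho = 0.82, n = 7), which did not pass, and r = 0.83 without the 2 arrays farthest from the Slc18a3 median. For Chat and Slc5a7 r was 0.80 (exact permutation p = 0.0353, adjusted 0.0706, rho = 0.71, n = 7) and 0.41 without the 2 farthest arrays, and for Slc5a7 and Vip it was 0.70 (exact permutation p = 0.0784, adjusted 0.134, rho = 0.75, n = 7) and 0.46. Chat and Vip gave r = 0.81 (exact permutation p = 0.0183, adjusted 0.0637, n = 7) and rho = 0.89 (adjusted exact p = 0.0492), with r = 0.86 without the 2 farthest. The relations were chosen after the values were seen, and the genes share an array and its scaling.

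In TH-MYCN+/+ none of these relations passed at this number of arrays, which does not show that they are absent. For Slc18a3 and Vip r was 0.29 (exact permutation p = 0.610, rho = 0.20, n = 6) and -1.0 over the 4 arrays left without the 2 farthest. For Chat and Slc18a3 r was 0.69 (exact permutation p = 0.154, rho = 0.77, n = 6) and 0.57 without the 2 farthest. Slc18a3 and Slc5a7 gave r = 0.92 (exact permutation p = 0.0278, adjusted 0.0667, rho = 0.60, n = 6), which fell to 0.11 without the 2 arrays farthest from the Slc18a3 median, so it rests on them. The other pairs gave r of 0.45 for Chat and Slc5a7, -0.07 for Chat and Vip and 0.50 for Slc5a7 and Vip. Their adjusted exact permutation p-values were 0.41, 0.90 and 0.41. Whether the genotypes differ in these correlations was not tested. Vip itself did not pass between genotypes (-0.86 ± 0.42 SE, adjusted p = 0.101). The motor neuron marker Mnx1 was below background on every array.

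**Figure D4:**
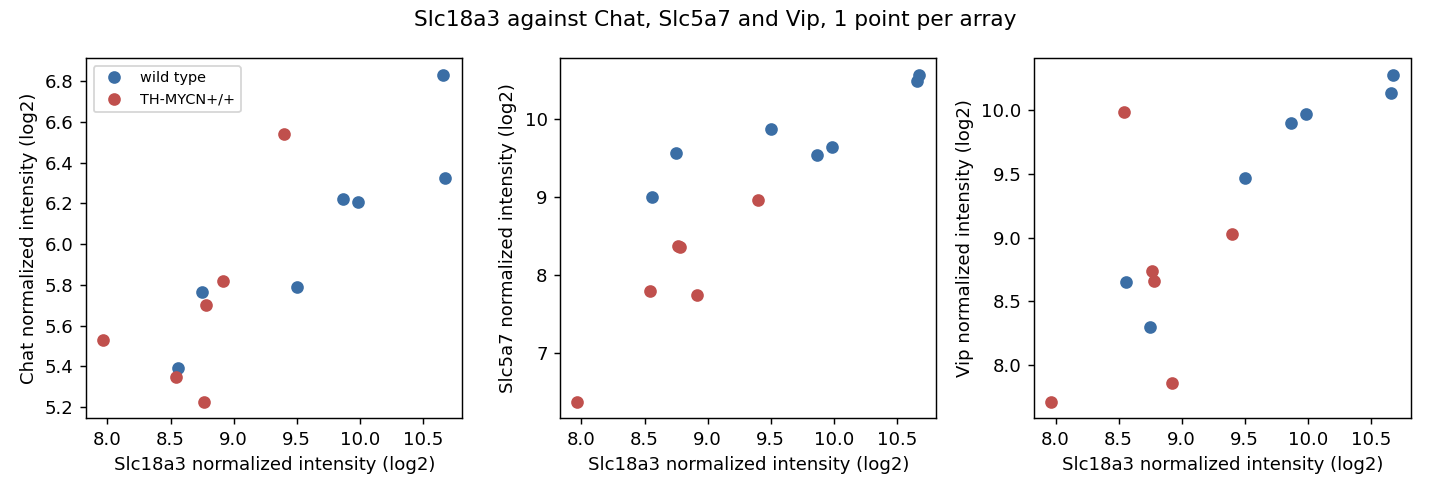
Normalized log2 intensity of Chat, Slc5a7 and Vip (vertical axes) against Slc18a3 (horizontal axes) on each array, wild type in blue and TH-MYCN+/+ in red. The 7 wild-type points rise from left to right, with r of 0.91 for Chat, 0.87 for Slc5a7 and 0.95 for Vip, and TH-MYCN+/+ replicate 3 stands apart in the Vip panel with Vip at 9.99 and Slc18a3 at 8.54.

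Among the TH-MYCN+/+ arrays replicate 4 was the lowest for all 6 members that fell. The highest was replicate 1 for 4 of them and replicate 5 for Chrna5 and Ache. On replicate 4 Th (14.80) and Dbh (15.64), enzymes of noradrenaline synthesis, were at their lowest, and the division markers Mki67 (14.69) and Top2a (11.19) at their highest among these arrays. Chrna7 by its brighter probe was also highest there, at 8.70. Sympathetic neuron markers (9 of 9 measured) averaged 14.11 to 14.70 in TH-MYCN+/+ and 15.05 to 15.26 in wild type, but not all went the same way. Of these markers 7 were lower, Snap25 was not called (-0.30, adjusted p = 0.446) and Elavl3, a neuronal RNA-binding protein, was 2.92-fold higher. Averages were also taken for glial markers (3 of 5), at 10.44 to 11.45 in TH-MYCN+/+ and 12.37 to 12.86 in wild type. Division markers (2 of 2) averaged 12.18 to 12.94 and 7.10 to 8.17. Fibroblast markers (3 of 3) averaged 12.80 to 13.58 and 14.68 to 14.85, endothelial markers (3 of 3) averaged 7.93 to 8.44 and 8.88 to 9.26, and the chromaffin cell marker Pnmt lay at 7.79 to 8.38 and 6.05 to 6.83. Macrophage markers (3 of 3) averaged 9.62 to 10.07 and 9.66 to 10.25, an average over opposite changes, as Cd68 was 2.75-fold higher while Adgre1 was 2.03-fold and Csf1r 1.42-fold lower. The part of these shifts in the members' values was not tested.

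Likeness was measured as the root-mean-square difference over the 13 arrays after each gene was centred on its mean. It takes in the genotype difference and each gene's spread, so near genes need not vary together within a genotype. Chrnb4 lay nearest to Pla2g3 (0.099 log2 units) and Kcnip4 (0.12), Chrna5 to Dmkn (0.14) and Oas1c (0.16), Chrna3 to Shc1 (0.12) and Oas1f (0.13), and Ache to Fxyd7 (0.14) and Ass1 (0.15). Chrnb2 was nearest to Slc25a14 (0.11) and Timm13 (0.12), Chrna4 to Xrcc6 (0.084) and Coro1c (0.089), and Chrna7 to Mgat5b (0.20) and Pak7 (0.20). Chat, Slc18a3 and Slc5a7 had no gene so near, their closest being Tmem236 (0.31), Cyp2c37 (0.30) and Nwd2 (0.29). Among the members themselves Chrna5 and Ache were the nearest pair (0.26).

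The remaining nicotinic subunits were mostly near or under background. Of 10 measured, 4 were higher and 1 was lower, against 18.9% and 34.3% of all genes, with a median log2 fold change of 0.05. With genes above background on 6 or more arrays 2 were higher and 1 was lower, as also with median centring. Chrna6, a subunit of catecholamine neurons in brain, rose 1.90-fold (adjusted p = 6.83e-04) and Chrna9, known from hair cells, 1.49-fold (adjusted p = 0.0469). Chrna2 was 1.45-fold lower, a call lost with spike-in scaling (0.17, adjusted p = 0.633). Chrnd and Chrng, subunits of the muscle receptor, were called higher but lay below background on all wild-type arrays and, for Chrng, on all arrays, so no fold is given. Chrna1, the muscle alpha subunit, was above background on 1 of 6 TH-MYCN+/+ and 4 of 7 wild-type arrays and not called, and 3 further subunits were below background on all arrays and not called.

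Muscarinic receptors respond to the same transmitter through G proteins. Of 5 measured, 4 were called lower and 1 higher, against 34.3% and 18.9% of all genes. The 4 include Chrm3 and Chrm5, which have no usable fold. Chrm5 was below background on all arrays of both genotypes. Chrm3 was below it on every TH-MYCN+/+ array and above it on 2 of 7 wild-type arrays. With genes above background on 6 or more arrays 2 were lower and 1 was higher, as also with spike-in scaling. Among all genes 7.21% were lower and 25.9% higher with spike-in scaling. Chrm1, which mediates slow excitation in ganglia, fell by 1.39 ± 0.19 (SE) on the log2 scale, from 11.07 to 9.68 (adjusted p = 3.37e-05), and Chrm2, an inhibitory receptor, fell 3.21-fold. Both calls held with spike-in scaling (-0.89, adjusted p = 0.0192, and -1.08, adjusted p = 0.00705). Chrm4, the receptor called higher (adjusted p = 0.0465), was above background on 5 of 6 TH-MYCN+/+ and 4 of 7 wild-type arrays, so no exact fold is given, and no muscarinic receptor was called higher with the replicate block or without the 4 arrays with neighbouring tissue markers.

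Of 10 measured genes that assemble or modulate nicotinic receptors 2 were higher and 4 lower, shares near those of all genes (18.9% and 34.3%). Their median log2 fold change was 0.03, and -0.25 with median centring. Ly6h and Lypd1, Ly6-type proteins known to dampen nicotinic receptors, rose 4.39-fold and 4.65-fold, from 10.19 ± 0.46 to 12.32 ± 0.17 and from 7.73 ± 0.80 to 9.95 ± 0.27 (SD). Lynx1, another Ly6-type modulator, went the other way and fell 3.04-fold, as did Lypd6 (1.97-fold) and Vsnl1 (3.44-fold), a calcium sensor that binds alpha4. Ric3 and Tmem35a, chaperones needed for alpha7 assembly, were not called (0.27 ± 0.18 and -0.11 ± 0.14, SE). With spike-in scaling 4 were higher and 2 lower, Lynx1 and Vsnl1 among the latter, and the call of Lypd6 was lost (-0.32, adjusted p = 0.361).

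Of 13 genes of acetylcholine breakdown and choline handling 3 were higher and 8 lower, against 18.9% and 34.3% of all genes, with a median log2 fold change of -0.50. With spike-in scaling 3 were higher and 3 lower, against 25.9% and 7.21%, with a median of -0.04. With median centring 1 was higher and 8 lower, where 3026 of all 21893 genes were higher and 10728 lower. Likewise 1 was higher with the replicate block and without the 4 arrays with neighbouring tissue markers. Butyrylcholinesterase, Bche, fell 3.49-fold beside Ache, and Colq, the collagen tail that anchors the esterase at synapses, fell 3.09-fold. Prima1, the membrane anchor of the esterase in neurons, rose 4.37-fold, from 9.35 ± 0.21 (SD, n = 7) to 11.47 ± 0.27 (SD, n = 6), so the esterase and its neuronal anchor moved in opposite directions. The choline transporter Slc44a1 fell 3.32-fold and Acly, which makes acetyl-CoA, 2.37-fold, while the choline kinase Chka rose 1.35-fold. Slc44a3 was below background on every TH-MYCN+/+ array and at least 1.01-fold lower there. The calls of Acly (-0.58, adjusted p = 0.0878) and of 4 other genes were lost with spike-in scaling.

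Among 11 measured autonomic transcription factors of 14 listed, 3 were higher and 4 lower, shares near the 18.9% and 34.3% of all genes. Their median log2 fold change was 0.16, and it turned to -0.07 with median centring. With spike-in scaling 4 were higher and 2 lower, against 25.9% and 7.21%. Isl1 and Gata3, factors of sympathetic neuron differentiation, rose 1.90-fold and 2.17-fold, and Tlx3, a homeobox factor of autonomic and sensory neurons, 1.87-fold. Phox2a, a homeobox factor of noradrenergic neurons, fell 1.55-fold, a call lost with spike-in scaling. Rest, the repressor of neuronal genes in other cells, fell 2.96-fold and Sox10, a glial factor, 2.99-fold. Of 9 measured genes of cholinergic differentiation signals and peptides 7 were lower and 1 was higher, against 34.3% and 18.9% of all genes, with a median log2 fold change of -0.86. With spike-in scaling 1 was lower and 1 higher, against 7.21% and 25.9%, with a median of -0.31. Ret, the signalling receptor for GDNF family ligands, fell 2.49-fold and its coreceptor Gfra2 1.91-fold. The Gfra2 call was lost with spike-in scaling (-0.46, adjusted p = 0.182). Cntfr, the receptor of ciliary neurotrophic factor, rose 2.28-fold, while Il6st and Osmr of the same list fell 2.16-fold and 1.75-fold. The peptide gene Sst fell 2.14-fold, lost with spike-in scaling (-0.48, adjusted p = 0.278). As only 1 gene of this list was lower with that scaling, at most 1 of the falls named from it held there.

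Of 12 genes of postsynaptic organisation 3 were higher and 5 lower, shares near the 18.9% and 34.3% of all genes. Their median log2 fold change of -0.33 turned to 0.05 as deposited and 0.21 with spike-in scaling, where 4 were higher and 2 lower. With median centring 1 was higher and 7 lower, where 3026 of all 21893 genes were higher and 10728 lower. Nlgn1, a synaptic adhesion protein, fell 3.96-fold, and Lrp4, the agrin receptor, 3.36-fold. Grip1, a scaffold of glutamate receptors, rose 4.10-fold and Agrn, which encodes agrin, 1.5-fold. Rapsn, which clusters nicotinic receptors at the neuromuscular junction, was not called (-0.29 ± 0.15 SE, adjusted p = 0.124).

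**Figure D5:**
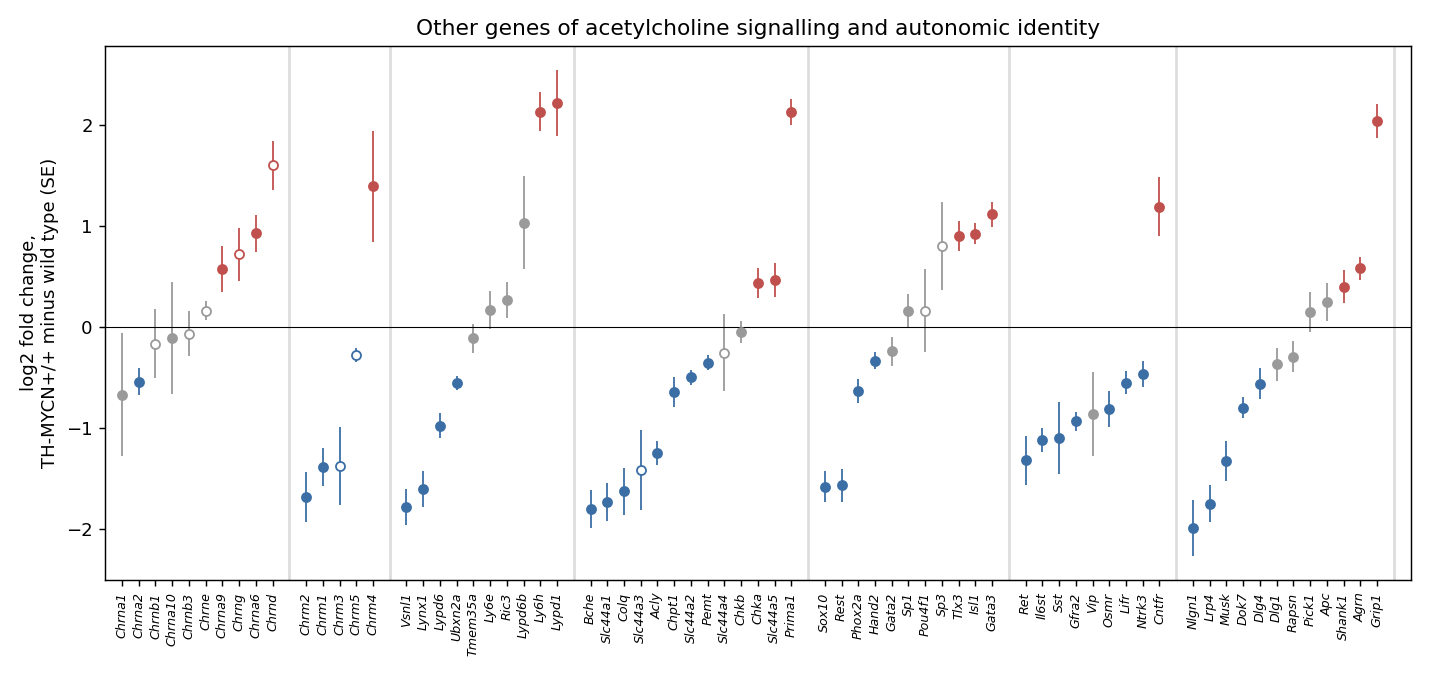
Log2 fold change with its SE for the other listed genes, in blocks for nicotinic subunits, muscarinic receptors, receptor assembly and Ly6 modulators, breakdown and choline handling, transcription factors, differentiation signals and peptides, and postsynaptic organisation. Red is higher, blue lower and grey not called in TH-MYCN+/+, and open points are below background on every array of at least 1 genotype. Prima1, Ly6h, Lypd1 and Grip1 stand above 2 and Nlgn1, Bche and Vsnl1 lie lowest.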

How the data were processed

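The authors deposited 1 intensity per probe and array on a log scale. No label names the base, which is read as log2 from the range of the values, whose maximum lay between 18.1 and 18.6. The deposited log2 values had array medians from 4.58 to 5.07 in TH-MYCN+/+ and from 3.94 to 4.50 in wild type. They had thus not been brought to a common level, and the medians of the genotypes did not overlap. The background defined below ran from 2.88 to 3.99 in TH-MYCN+/+ and from 2.16 to 3.56 in wild type. No label records the steps before deposit, and the cause of these differences was not tested. After 140 control probes were left out, 55681 probes were quantile normalized. Of the deposited probes, 30626 had 1 gene symbol and 25055 array probes had none. The brightest probe stood for each of 21893 genes, of which 6807 had several. Genotypes were compared with lmFit and eBayes in limma 3.58.1 (R 4.3.3) with Benjamini-Hochberg adjustment over all genes, at an adjusted p under 0.05. Probe tests were adjusted over all array probes. Background was the 95th percentile of the ERCC probes of each array, which assumes that no ERCC RNA was added, and 56.3% to 63.0% of probes lay above it. All 10 genes were above background on all 13 arrays by their brightest probe. Spike-in scaling used the E1A probes above background.

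The members and gene lists were chosen with earlier results of these data known. Every member is named with all its probes, and from each list up to 6 called genes with the largest change and up to 2 others could be named, plus the 2 genes most like each member. No pairing of the genotypes by sample number was seen, as deviations of same-numbered samples correlated at -0.126 to 0.0473. Such values cannot exclude a pairing. Alternatives were other scalings, a background filter, the mean of all probes, trended and robust variance, array weights, the sample number as a block and leaving out each array. The fit was also tested on simulated data, and the outcome is not given here. Figures were drawn with matplotlib 3.10.9 in Python 3.11.15. Listed genes without a matching probe were not analysed here.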

Additional observations from a re-analysis of the deposited data

Results flagged for a closer look

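The dimmer Ache probe had a wild-type array far from the others. Replicate 3 stood at 9.86 on the normalized log2 scale, and the remaining wild-type arrays ran from 10.27 to 10.59. Its gap to the nearest array was 0.569 of the group's range. It was the single result so marked in 36 groups of arrays tested, of which about 5% would be marked by chance, and the array still lay above every TH-MYCN+/+ array, the highest of which was at 9.17.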

How the results depend on the processing

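Over 23 alternatives each, 8 of the 10 members kept their direction of call or stayed uncalled. These followed the brightest probe of each gene, except in the alternative with the mean of all probes. Chrna3 lost its call in 1, and Slc18a3 in 11. The number of genes called was 11652 and became 7254 with spike-in scaling. The number called lower was 7516 and became 2746 as deposited and 1579 with spike-in scaling, and the cause was not tested. Leaving out 1 array gave 5 to 6 lower and 2 higher members and 10942 to 11788 genes called. The within-array differences then ran from -0.70 to -0.47 for Chrna5 minus Chrna3, -0.57 to -0.38 for Chrnb4 minus Chrna3, 0.48 to 0.71 for Chat minus Slc18a3 and 1.49 to 1.83 for Chrnb2 minus Chrnb4. Without TH-MYCN+/+ replicate 4 the first 3 lost their calls. With the replicate number as a block, to which wild-type replicate 7 adds nothing, 6 members were lower, 2 were higher and 10537 genes were called. As deposited, 3 more wild-type correlations passed by r, at 0.86 for Chat and Slc5a7, 0.88 for Chat and Vip and 0.90 for Slc18a3 and Slc5a7, but none of the 3 passed by rho (adjusted exact p of 0.102, 0.0952 and 0.133), and the last fell to 0.29 without the 2 farthest arrays. The dimmer Chrna4 probe was below background on all 7 wild-type arrays, which limits its fold to a bound. Chat, among the dimmer members, was above background on all 13 arrays.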
